A study of Homo sapiens with 4 samples.

Results

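Perilipins coat the surface of lipid droplets, and adipose triglyceride lipase (ATGL, encoded by *PNPLA2*) starts the breakdown of the triglyceride stored in them. The 10 genes described here were chosen by name from the 58288 genes of the RNA-seq tables: the perilipins *PLIN1*, *PLIN2*, *PLIN3*, *PLIN4* and *PLIN5*, the ATGL inhibitors *HILPDA* and *G0S2*, the lipases *PNPLA2* and *LIPE*, and the ATGL coactivator *ABHD5*. All 10 were found. The data came from HK2 cells, an immortalized line of human renal proximal tubule, treated with 50 μM FG-4592 (roxadustat), which inhibits the prolyl hydroxylases that mark HIFα for degradation. The study asked which metabolic genes HIF1α binds and regulates in tubular cells. There were 2 groups of 2 replicates, HIF1α ChIP-seq and RNA-seq, both under FG-4592, with a treatment time of 6 h in the methods of the study. No library of untreated cells entered, so every value is a level or a position under treatment and no change with treatment was computed. Nothing in the sources says that the replicates came from separate cultures, so the spread between them may be technical. With 2 libraries the SD is imprecise, and 2 values against 2 cannot give a p below 0.333 in an exact permutation test, so no test was run. RNA levels are in FPKM, fragments normalised for transcript length and library depth, added up over the transcripts of a gene. Read counts were not given. Coverage multiplied by transcript length came to 4442 Mb in RNA-seq replicate 1 and 4202 Mb in replicate 2, and the members held 0.0884% and 0.0865% of it.

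Fat cells keep triglyceride in large droplets that carry *PLIN1*, whereas *PLIN2* and *PLIN3* are found in most tissues. At the droplet, ATGL removes the first fatty acid of a triglyceride. ABHD5 activates it and G0S2 and HILPDA inhibit it, and hormone-sensitive lipase, the product of *LIPE*, then acts on the diacylglycerol. *HILPDA* is named for its induction by hypoxia, and the proximal tubule burns fatty acids in its many mitochondria to drive reabsorption. HIF1α with its partner ARNT recognises DNA with the core ACGTG or GCGTG.

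The label of the cells was compared with marker genes. Of 14 proximal tubule markers, 4 had an FPKM of at least 1 in both libraries, and the list summed to 258.2 and 248.9. Those were *PAX8* (120.8 and 114.1), *CDH6* (72.0 and 74.0), *GGT1* (62.3 and 58.5) and *SLC5A2* (2.59 and 1.70), while *LRP2*, *HNF4A*, *SLC22A6* and *SLC22A8* were listed at 0 in both. The endocytic receptor, the hepatocyte nuclear factor and the organic anion transporters that mark mature tubule cells were thus absent. Of 6 epithelial markers 5 reached that level (summed FPKM 489.5 and 467.0), led by the keratin gene *KRT19*, and *CDH1* was at 0.211 and 0.379. Of 5 mesenchymal markers 3 reached it (summed FPKM 1397 and 904.7), led by *VIM* at 1294 and 801.8. Since adipocytes and macrophages also store lipid in droplets, their markers were examined as well. No adipocyte marker of 4 reached an FPKM of 1 (summed FPKM 0.0844 and 0), with *ADIPOQ*, *LEP* and *FABP4* listed at 0 in both libraries. Of 3 macrophage markers only the lysosomal gene *CD68* did (33.6 and 31.5), and *PTPRC* was listed at 0. Of 3 endothelial markers none did (summed FPKM 0.0254 and 0). In bulk RNA, fewer cells that express a gene and less RNA per cell cannot be told apart.

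The members fell into a high and a low set. Of the 10 genes, 8 had an FPKM of at least 1 in both libraries, as did 22.5% of all 58288 genes. An FPKM of 5 or more was reached by 6, a level for which the share of all genes was not counted. For scale, the droplet formation gene *FITM2*, at a mean FPKM of 5.10, ranked 9125 among all genes. Of the members, *PLIN2* was the highest and ranked 223 among all genes by mean FPKM. It was followed by the ATGL inhibitors *G0S2* (rank 1021) and *HILPDA* (rank 1093), then by *PNPLA2* (1572), *PLIN3* (1778) and *ABHD5* (3830). *PLIN4* (12595), *LIPE* (12756), *PLIN5* (15043) and *PLIN1* lay far below. In this order the libraries of *G0S2* and *HILPDA* overlapped, as did those of *PNPLA2* and *PLIN3* and those of *PLIN4* and *LIPE*. Within each library *PLIN3* was 0.917 and 0.873 times *PNPLA2*, and *PLIN4* 1.07 times *LIPE* in both, so of these pairs only *G0S2* and *HILPDA* changed order between the libraries. The libraries of the other 6 pairs of neighbours did not overlap, and the widest gap outside the pair with *PLIN1* was the 12.4-fold step from *ABHD5* to *PLIN4*. The plot of gene levels shows each library.

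**Figure D1:**
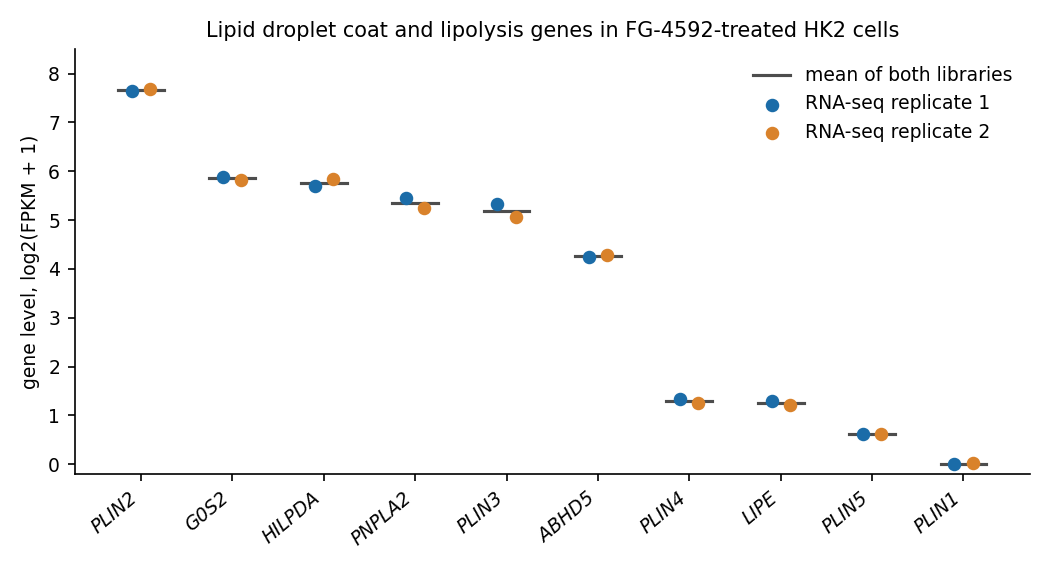
FPKM of the 10 genes in the 2 RNA-seq libraries of FG-4592-treated HK2 cells, as log2(FPKM + 1), with the mean of both libraries as a line. *PLIN2* stands alone at the top, *G0S2*, *HILPDA*, *PNPLA2*, *PLIN3* and *ABHD5* form a middle set, and *PLIN4*, *LIPE*, *PLIN5* and *PLIN1* lie near or below an FPKM of 1.

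*PLIN2*, a perilipin gene found active in most tissues, reached 200.1 FPKM in the first library and 203.7 in the second. It made up 82.9% and 85.6% of the summed perilipin FPKM (241.3 and 237.9). Almost all of it lay on a single transcript, ENST00000276914 (8 exons, start at 19127576 of chromosome 9 on GRCh38, minus strand), at 192.0 and 194.1. Its share of the gene was 96.0% in replicate 1 and 95.3% in replicate 2. The annotation also holds a start near 19149290, upstream of that one, with the transcripts ENST00000434144 (0.095 and 0.12) and ENST00000494753 (0.0472 and 0). The first exon of each of these was listed at a coverage of 0 in both libraries. Expression of *PLIN2* was thus assigned to the downstream start. Along the exons of the leading transcript, coverage with all *PLIN2* transcripts added was 290.7 and 264.3 reads per base in exon 1, 1131 and 1028 in exon 2 and 1461 and 1398 in exon 4.

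The *PLIN2* promoter carried a HIF1α peak in ChIP-seq replicate 1. On GRCh37 it ran from 19127416 to 19127765 of chromosome 9, and 21.1% of it lay in *PLIN2* exons. It held 5 matches to ACGTG or GCGTG on either strand, all within 100 bp of its centre. A palindromic CACGTG, read as a match on both strands, gave 2 of them, at 19127554-19127558 and 19127555-19127559. In the RefSeq promoter window on GRCh38.p14, from 250 bases before to 50 after the start, the first bases of the 5 matches lay from 120 to 3 bases before the start, and the last match runs across it. The stretch upstream of the first GENCODE exon is shown because this promoter carried a peak, and it holds the outermost of the 5 matches (chr9:19127577-19127742, GRCh38.p14, minus strand, RefSeq). It is printed 5′ to 3′ with the match in capitals, and 77.7% of its bases are G or C.
PLIN2 upstream: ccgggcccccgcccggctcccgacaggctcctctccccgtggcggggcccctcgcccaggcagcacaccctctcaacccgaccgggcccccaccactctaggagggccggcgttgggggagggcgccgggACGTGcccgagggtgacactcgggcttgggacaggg

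A further replicate 1 peak lay outside the gene, 12494 bp beyond the farthest annotated *PLIN2* start, at chr9:19161782-19162081 on GRCh37. The nearest start of any annotated gene was that of *PLIN2*. It held a single match, ACGTG, 21 bp from its centre, and 41.7% of its bases are G or C. Its sequence is shown as the one distal replicate 1 peak whose nearest gene is a member (plus strand, match in capitals).
PLIN2 distal peak: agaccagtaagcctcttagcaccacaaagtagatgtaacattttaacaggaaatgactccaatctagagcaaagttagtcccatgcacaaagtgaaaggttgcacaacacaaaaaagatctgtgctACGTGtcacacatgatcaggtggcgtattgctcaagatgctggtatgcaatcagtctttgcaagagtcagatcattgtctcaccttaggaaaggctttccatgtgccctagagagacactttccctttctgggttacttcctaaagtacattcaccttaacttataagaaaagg
Neither of these peaks overlapped a peak of replicate 2. The replicate 2 list had a different *PLIN2* peak, from 19116183 to 19116487, which lay wholly in the last exon, 78.4% of it in coding sequence and 1957 bp from the nearest start. The replicates thus had peaks at different ends of the leading transcript.

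*PLIN3*, also known as TIP47, is found in the cytosol and on newly formed droplets. Its FPKM in the libraries was 39.1 and 32.3 (35.7 ± 4.87, SD, n = 2), 16.2% and 13.6% of all perilipin FPKM. *PLIN2* was 5.11 times and 6.31 times as high. Unlike that of *PLIN2*, its FPKM was assigned to several coding transcripts. ENST00000589163, which lacks the first exons of the full-length form, had 17.7 and 11.4, ENST00000221957 had 9.20 and 9.19, and ENST00000585479 had 9.44 and 8.61. The difference between the libraries lay mainly in the first of these, which is also the one that took most coverage of the last exon (131.5 and 76.1 reads per base). ENST00000221957 was given 0.625 and 0.459 there, but 184.9 and 171.3 in exon 7, so the split rests on how that exon was assigned. By share of the gene's bases, ENST00000589163 led in replicate 1 (42.9% against 30.5% for ENST00000221957). In replicate 2 ENST00000221957 led (36.3% against 32.8%).

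Exon 5 of *PLIN3* stood out from the rest of the gene. This exon of 286 bp (chr19:4852016-4852301, GRCh38) had a coverage, added over all transcripts, of 35.1 and 29.1 reads per base. The exons beside it had 220.2 and 201.1 (exon 4) and 194.3 and 179.1 (exon 6). Its coverage was thus 0.169 times the mean of its neighbours in replicate 1 and 0.153 times in replicate 2. Among 25 inner exons of the members at FPKM 5 or more, this was the only 1 that was under 0.5 in both libraries, and the next lowest, exon 3 of *ABHD5*, was at 0.501 and 0.653. The corresponding exon 5 of *PLIN2*, also of 286 bp, was at 0.990 and 1.01. Every listed *PLIN3* transcript that reaches exon 6 also contains exon 5, whole or in part, and levels were estimated for listed transcripts only. A form without the exon therefore has no level of its own in these tables, and the source of the low coverage was not tested. The exon was picked out after its values were seen. The plot of exon coverage shows the dip in both libraries.

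**Figure D2:**
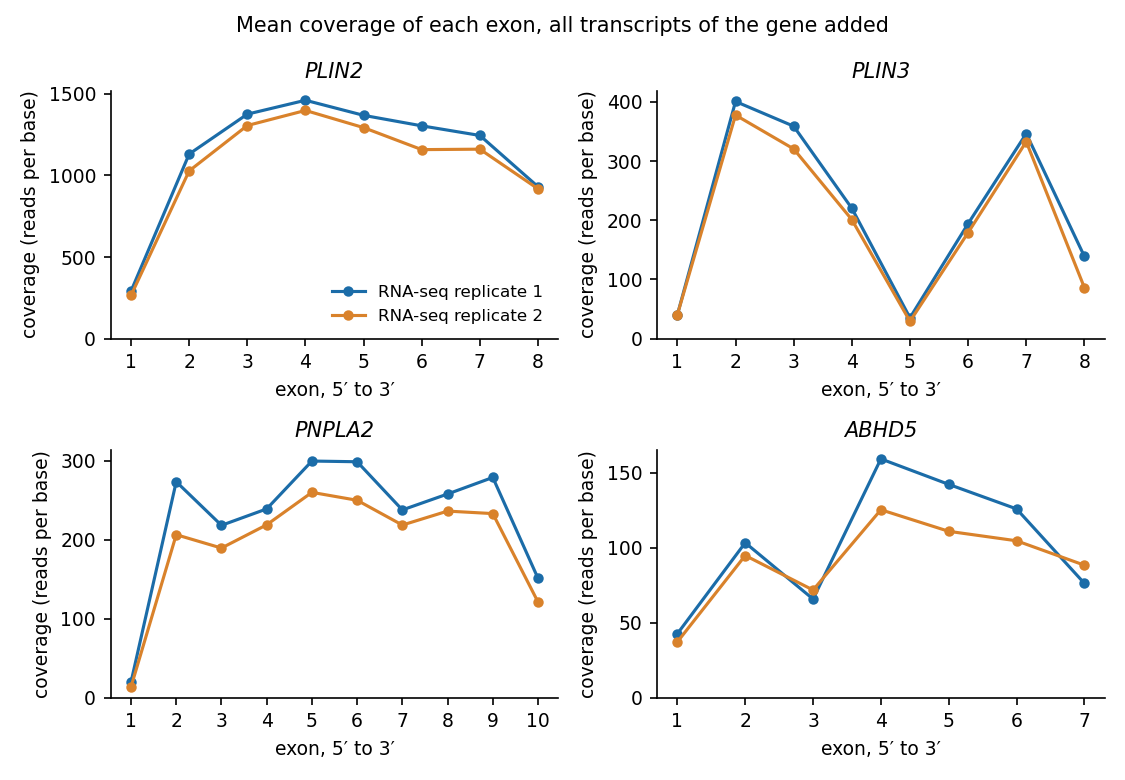
Mean coverage of each exon in reads per base, all transcripts of the gene added, along 1 transcript each of *PLIN2*, *PLIN3*, *PNPLA2* and *ABHD5*, with 1 line for each RNA-seq library. Coverage of *PLIN3* falls to 35.1 and 29.1 at exon 5, and in all 4 genes exon 1 is lower than exon 2.

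The RefSeq promoter window of *PLIN3* held 3 matches to ACGTG or GCGTG, the outermost 220 bases before the start. Neither list had a peak within 1 kb of a *PLIN3* start, and the nearest replicate 1 peak was 100698 bp away. The part before its first exon is shown for comparison with *PLIN2*, as a coat gene with matches but no promoter peak (chr19:4867769-4867917, GRCh38.p14, minus strand, RefSeq, with the 2 matches of this part in capitals).
PLIN3 upstream: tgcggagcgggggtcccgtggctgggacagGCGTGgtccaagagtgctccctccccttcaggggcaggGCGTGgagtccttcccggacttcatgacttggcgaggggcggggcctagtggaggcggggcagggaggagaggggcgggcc
In replicate 2 a peak of 977 bp lay over part of the last exon, from 4838586 to 4839562 of chromosome 19 on GRCh37. Of it, 98.6% was exon and 35.0% coding, and it held 4 matches, none within 100 bp of the centre.

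The other 3 perilipins are those of fat cells, muscle and other tissues that burn or store much fat. *PLIN4* had an FPKM of 1.54 and 1.40 (1.47 ± 0.0976, SD, n = 2) and *PLIN5*, which tethers droplets to mitochondria in oxidative tissue, 0.533 and 0.540 (0.537 ± 0.00540). *PLIN1*, the coat protein of fat cells, was listed at 0 in replicate 1 and at 0.0195 in replicate 2, where only its last exon had coverage (0.190 reads per base). The low *PLIN1* values stood beside the adipocyte markers *ADIPOQ*, *LEP* and *FABP4*, listed at 0 in both libraries, and *CIDEC*, at 0.0844 and 0.

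The transcripts of these low genes did not agree between the libraries. For *PLIN4*, ENST00000633942 had 1.14 in replicate 1 and 0.0272 in replicate 2, and ENST00000301286 had 0.396 and 1.37, so 72.4% of the gene's level sat on other transcripts in replicate 2. For *PLIN5*, the coding ENST00000381848 had 0.325 and 0.116 and the retained-intron ENST00000589728 0.174 and 0.380, a move of 44.9%. By share of the gene's bases, the coding form led in both (84.3% and 55.0%). The gene FPKM of *PLIN5* was 0.533 and 0.540, while its bases of coverage, scaled to each library, were 0.545 times as many in replicate 2. A single gene value thus joined unlike sets of transcripts. *PLIN4* overlaps *HDGFL2* (28.7 and 28.2) on the opposite strand, and whether the libraries kept the strand is not given in the sources used here, so reads from such a pair cannot be told apart. The same holds for *ABHD5* and *ANO10* (18.9 and 16.4), and for *PNPLA2*, *G0S2* and *LIPE* with antisense genes at an FPKM of 1.42 or less. *PLIN1* overlaps *PEX11A* (3.46 and 3.62) and *HILPDA* overlaps *AC010655.2* (1.06 and 0.719) on the same strand.

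**Figure D3:**
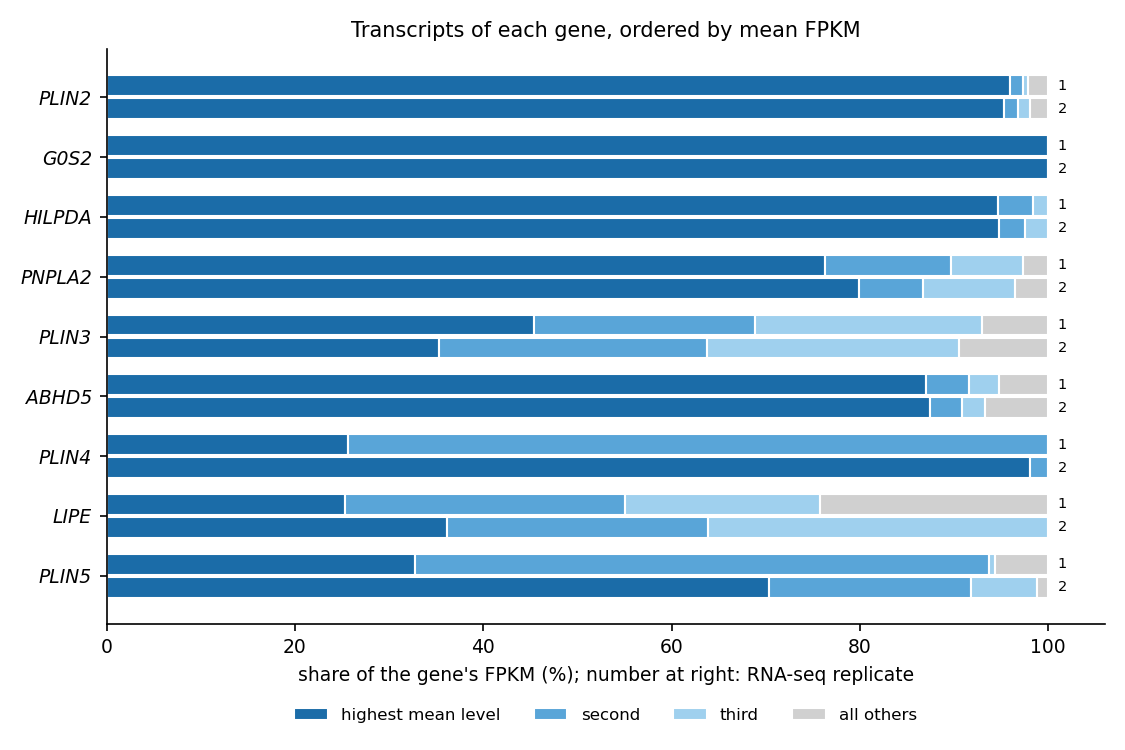
Share of each gene's FPKM on its highest transcript by mean level, the next 2 and all others, in percent, with 1 bar for each RNA-seq library. *PLIN1* is left out because it was listed at 0 in replicate 1. *PLIN2*, *G0S2* and *HILPDA* rest on a single transcript in both libraries, while the shares of *PLIN4* and *PLIN5* differ widely between the bars.

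No peak of either list lay within 1 kb of a start of *PLIN1*, *PLIN4* or *PLIN5*. *PLIN4* and *PLIN5* are neighbours on chromosome 19, 4066 bp apart on GRCh38, and share 4 replicate 2 peaks within 100 kb. Nearest to *PLIN4* was the one from 4499477 to 4499703 on GRCh37, 18774 bp from a start, with no match. Its centre was 4 bp from a start of *HDGFL2*. The one nearest to *PLIN5*, from 4543649 to 4544038, lay 8413 bp upstream of that gene and held 4 matches. The nearest coding gene of this second peak was *SEMA6B*. The replicate 1 peak nearest to *PLIN1*, from 90233751 to 90234049 of chromosome 15, lay 11093 bp upstream of it, but its centre was 7 bp from a start of *PEX11A*, a gene of peroxisome division, with a match 5 bp from the centre. That peak thus lay at the start of a neighbour, not of a perilipin gene.

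HILPDA, a small droplet protein, inhibits ATGL. Of the *HILPDA* level of 50.9 and 56.1 FPKM, 48.2 and 53.2 came from ENST00000257696 (94.6% and 94.8%). A shorter coding transcript, ENST00000435296, had 1.90 and 1.55, and ENST00000466473, which starts downstream of the others, was listed at 0 in both. Coverage of its first exon was 1.33 and 1.31 times that of the second, and of the members at FPKM 5 or more *G0S2* was the other with a first exon at least as well covered as the second in both libraries. *HILPDA* was the only member with a promoter peak in both ChIP-seq replicates. The peaks' centres were 77 and 79 bp from a *HILPDA* start, and 68 and 70 bp from that of *AC010655.4* (FPKM 0.155 and 0.159), which overlaps it on the same strand. Each of the 2 overlapping peaks held 8 matches to ACGTG or GCGTG, 7 of them within 100 bp of its centre, more than any other peak within 100 kb of a member had near its centre. A second replicate 2 peak lay in the noncoding part of the last exon, from 128097565 to 128097817 of chromosome 7 on GRCh37, 1152 bp from a start, with no match. The promoter peaks met each other across replicates, and the last-exon peak met none of replicate 1.

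G0S2 binds ATGL directly and inhibits it. *G0S2* had an FPKM of 58.0 and 55.7 and a single annotated transcript, with coverage of 329.0 and 313.4 reads per base in exon 1 and 319.1 and 286.1 in exon 2. Its level was 1.14 times that of *HILPDA* in replicate 1 and 0.993 times in replicate 2. The inhibitors were thus at like levels but differed in the ChIP-seq lists used here. The paper lists HIF1α promoter binding for both of them, as for *PLIN2*. *G0S2* was one of 2 members, with *ABHD5*, that had no peak of either replicate within 100 kb of a start. Its RefSeq promoter window nevertheless held 4 matches to ACGTG or GCGTG, 236, 181, 170 and 47 bases before the start. It is shown as a promoter with several matches and no peak (chr1:209675162-209675411, GRCh38.p14, plus strand, RefSeq, matches in capitals, CACGC being GCGTG on the other strand).
G0S2 upstream: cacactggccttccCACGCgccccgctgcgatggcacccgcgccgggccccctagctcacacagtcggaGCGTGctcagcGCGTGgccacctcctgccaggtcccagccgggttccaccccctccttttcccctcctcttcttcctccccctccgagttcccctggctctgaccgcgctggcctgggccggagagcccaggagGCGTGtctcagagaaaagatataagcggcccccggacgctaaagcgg

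*PNPLA2*, the gene of ATGL, had an FPKM of 42.7 and 36.9 (39.8 ± 4.07, SD, n = 2). Only 1 of its 6 transcripts codes for protein, ENST00000336615, at 32.6 and 29.5, or 76.3% and 79.9% of the gene. The other 5 are annotated as retained-intron forms and held 23.7% and 20.1%. The highest of these were ENST00000529255 (5.70 and 2.53) and ENST00000525250 (3.27 and 3.61). For *PLIN2* the share on transcripts without a defined coding sequence was only 2.69% and 2.59%. Exon 1, of 57 bp, was covered at 19.9 and 13.8 reads per base and exon 2 at 273.2 and 206.2, so the ratio of the first to the second exon was 0.0730 and 0.0670, the lowest among the members at FPKM 5 or more. In *PLIN3* it was 0.101 and 0.107, in *PLIN2* 0.257 in both and in *ABHD5* 0.413 and 0.393. The first exons of these genes are of unlike length, at 160 bp in *PLIN3*, 158 bp in *PLIN2* and 170 bp in *ABHD5*. In all of these but *PNPLA2*, other transcripts start inside that exon. The ratios are thus not like for like, and their source was not tested.

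The promoter peak counted for *PNPLA2*, in replicate 2, was not at the start of the coding transcript. It ran from 824554 to 825066 of chromosome 11 on GRCh37, wholly within the last exon and 59.6% coding, and was counted because it lay 906 bp from the start of a retained-intron transcript at 823648. That transcript, ENST00000526083, had an FPKM of 0.209 and 0.143. The nearest start of any annotated gene was not that of *PNPLA2* but of the antisense *AP006621.1* (1.42 and 1.11), 165 bp from the peak's centre. The peak held 1 match, 109 bp from its centre. Of 8 replicate 2 peaks within 100 kb, the most of any member, the other 7 lay outside the gene, with nearest coding genes such as *CD151* and *TALDO1*. The nearest replicate 1 peak was 95596 bp away, with *CHID1* as its nearest gene. No match to ACGTG or GCGTG occurred in the RefSeq promoter window. The part of it before the first exon is shown as that of the lipase the inhibitors act on (chr11:818664-818901, GRCh38.p14, plus strand, RefSeq).
PNPLA2 upstream: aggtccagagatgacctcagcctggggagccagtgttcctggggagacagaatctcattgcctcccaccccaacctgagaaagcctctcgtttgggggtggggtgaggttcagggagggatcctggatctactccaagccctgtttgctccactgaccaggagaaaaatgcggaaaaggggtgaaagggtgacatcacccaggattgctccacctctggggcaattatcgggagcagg

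*ABHD5*, also called CGI-58, had an FPKM of 18.0 and 18.4 (18.2 ± 0.311, SD, n = 2), with 87.0% and 87.4% on the coding ENST00000458276. Its nearest peaks were 277240 bp from a start in replicate 1 and 724755 bp in replicate 2. *LIPE* had an FPKM of 1.44 and 1.31 (1.38 ± 0.0906, SD, n = 2). By mean FPKM its highest transcript was the coding ENST00000244289 (0.364 and 0.474), which also held 55.2% and 67.2% of the gene's bases of coverage. Close to it were the coding ENST00000599783 (0.428 and 0.364) and the retained-intron ENST00000600224 (0.299 and 0.474). The first exon of ENST00000244289 was listed at a coverage of 0 in both, and 4 of the 9 transcripts were at 0. Among the members that act in lipolysis, *PNPLA2* and *ABHD5* were thus well above *LIPE*, and *PNPLA2* was 29.6 and 28.2 times as high as *LIPE*.

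The balance between the ATGL gene and the genes that act on it was read from ratios of FPKM within each library. *G0S2* was 1.36 times *PNPLA2* in replicate 1 and 1.51 times in replicate 2, and *HILPDA* 1.19 and 1.52 times. Together the inhibitor genes had 2.55 and 3.03 times the FPKM of *PNPLA2*. *PNPLA2* in turn had 2.38 and 2.01 times that of *ABHD5*, so both inhibitors exceeded the lipase and the lipase exceeded its coactivator in each library. *PLIN2* was 4.69 and 5.52 times as high as *PNPLA2*. These are RNA levels per length and say nothing of protein amounts. Between the libraries, with a pseudocount of 1, the log2 ratio of replicate 2 to replicate 1 was -0.27 for *PLIN3*, -0.20 for *PNPLA2* and 0.14 for *HILPDA*, and between -0.08 and 0.03 for the other 7, to 2 decimals. The median absolute log2 ratio was 0.08 over the 8 members at FPKM 1 or more and 0.12 over all 13105 such genes. The share of a gene's FPKM that moved to other transcripts had a median of 7.35% over the 7 of them with several transcripts, against 13.4% over 11690 such genes.

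Promoter peaks, within 1 kb of any annotated start, were found for 2 of the 10 members in ChIP-seq replicate 1 (*PLIN2* and *HILPDA*), as for 2.5% of 55862 genes and 8.27% of genes at FPKM 1 or more. In replicate 2 they were found for 2 (*HILPDA* and *PNPLA2*), beside 9.72% of all and 20.9% of expressed genes. In both replicates only *HILPDA* had one, beside 0.779% and 2.72%. With so few members these counts describe the genes one by one. Of the 10 members, 4 had an exon touched by a replicate 2 peak (*PLIN2*, *PLIN3*, *HILPDA* and *PNPLA2*), all 4 among the 8 at FPKM 1 or more, as did 16.5% of all genes and 48.4% of expressed genes. For replicate 1 these were 2 of 10, beside 1.92% and 6.54%. Within 100 kb of a start, 4 of 10 had a replicate 1 peak (18.3% of all genes) and 8 of 10 a replicate 2 peak (64.9%). The lists were of unlike length, with 1689 peaks in replicate 1 and 16953 in replicate 2.

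**Figure D4:**
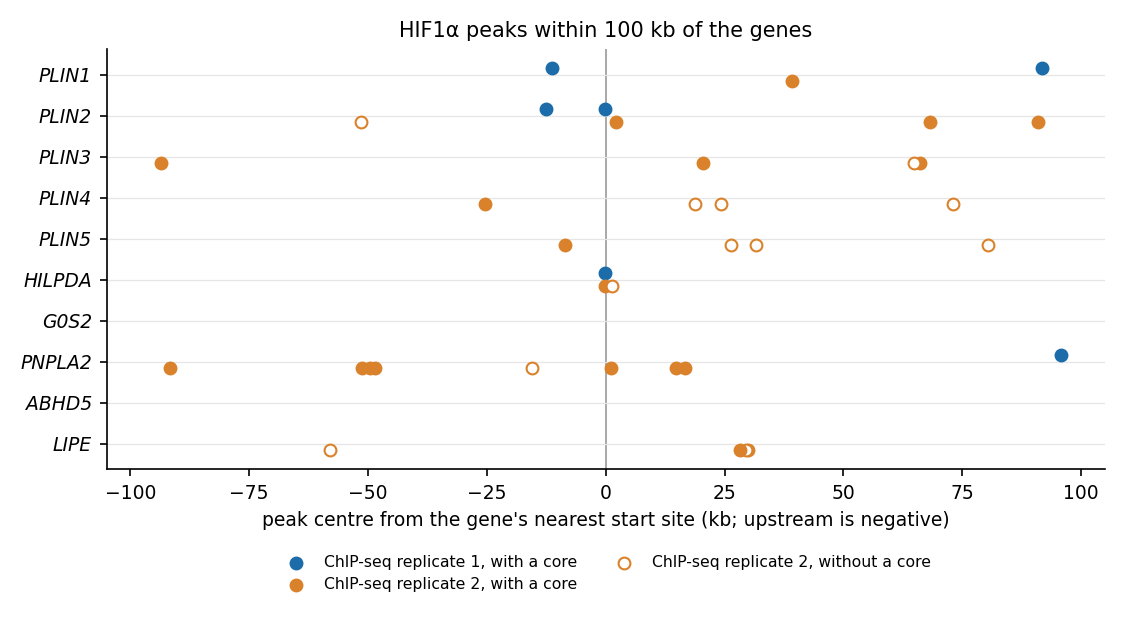
Distance in kb from each gene's nearest annotated start to the centre of every HIF1α peak within 100 kb, by ChIP-seq replicate; upstream is negative, and filled points hold a match to ACGTG or GCGTG. The points nearest 0 belong to *PLIN2* and *HILPDA*, and *G0S2* and *ABHD5* have none.

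All 6 replicate 1 peaks within 100 kb of a member held a match, as did 89.3% of all replicate 1 peaks. In replicate 2 the share over all peaks was 48.8%, with 27.1% holding a match within 100 bp of the centre, against 86.2% in replicate 1. Of 27 replicate 2 peaks within 100 kb of a member, 18 held a match, 9 of them within 100 bp of the centre. Of the 5 of these at the members' own starts or exons, 4 held a match and 2 within 100 bp of the centre, *HILPDA*'s at its promoter and *PLIN2*'s in its last exon. Apart from the *HILPDA* promoter peaks, no peak within 100 kb of a member overlapped one of the other replicate. RefSeq promoter windows of 300 bases were at hand for 9 of the 10 members, 12 windows in all (the entry missing is *HILPDA*). ACGTG or GCGTG on either strand occurred in 6 of these windows and in 48.4% of 35116 windows. It was found for *PLIN2* (5 matches), *G0S2* (4), *PLIN3* (3), *PLIN5* (2) and *ABHD5* (1), and not in the windows of *PNPLA2*, *PLIN1*, *PLIN4* and *LIPE*. With 1 kb on either side of the gene start on GRCh37, *PNPLA2* had 9 matches, *PLIN4* 6, *LIPE* 3 and *PLIN1* 0. CACGTG, which contains ACGTG, occurred in 7.26% of windows and among the members only at *PLIN2*. A match is a stretch of letters and was not read as a bound site.

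Other genes of lipid droplets, 33 in all, place the members among their partners. Of these, 24 had an FPKM of at least 1 in both libraries. Among 10 lipases and esterases 7 did, led by the lysosomal acid lipase gene *LIPA* (37.9 and 36.6), the cholesterol ester hydrolase gene *NCEH1* (30.4 and 36.8) and the monoglyceride lipase gene *MGLL* (36.2 and 26.3), all at levels near *PNPLA2*. The closest relative of *PNPLA2* on the list, *PNPLA3*, had 13.2 and 8.42. None of the 3 genes of droplet fusion in fat cells and liver did (*CIDEA* 0 and 0, *CIDEB* 0.255 and 0.165, *CIDEC* 0.0844 and 0). Of the droplet formation genes 3 of 4 did (summed FPKM 23.1 and 23.4), and of 9 other droplet proteins 7.

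The 3 genes of perilipin turnover and lipophagy were high: *HSPA8*, a chaperone that delivers perilipins to the lysosome, at 1007 and 947.1, *LAMP2*, the gene of its lysosomal receptor, at 143.4 and 130.6, and the late endosomal GTPase gene *RAB7A* at 131.5 and 139.1. *HSPA8* has processed pseudogenes, with which reads may be shared. All 4 genes of the lipid-responsive transcription factors PPARα, PPARδ and PPARγ and their coactivator were at an FPKM of 1 or more, with *PPARG* at 9.14 and 11.8. Promoter peaks were found for 2 of the 33 in replicate 1 (*MGLL* and *RAB7A*), 5 in replicate 2 (*DDHD2*, *CIDEB*, *FITM1*, *RAB18* and *HSPA8*) and none in both, beside the 2.5%, 9.72% and 0.779% of all genes given above.

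**Figure D5:**
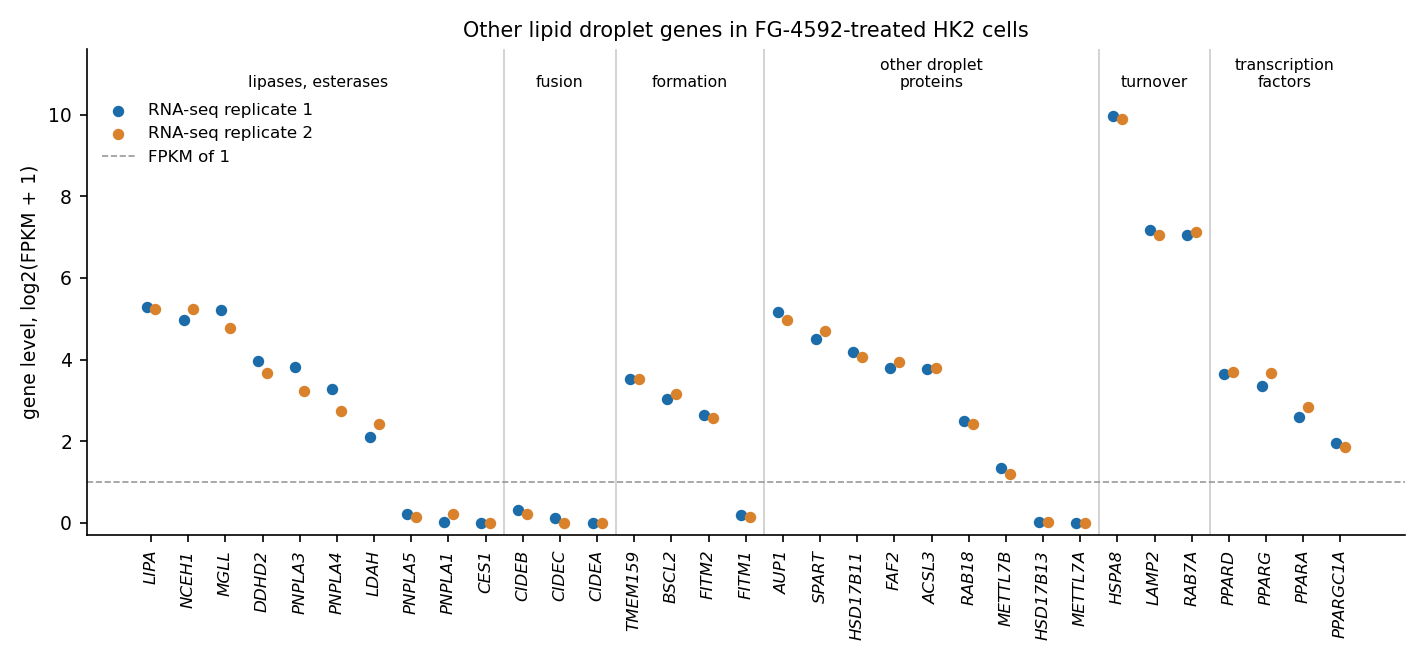
FPKM of 33 other lipid droplet genes in the 2 RNA-seq libraries, as log2(FPKM + 1), grouped by role and ordered by mean level within a group, with a dashed line at an FPKM of 1. Genes of droplet fusion lie below the line and those of turnover at the top.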

How the data were processed

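The samples, 2 of each assay, were grouped by their labels. For ChIP-seq, the authors used Bowtie2 on hg19 with unique alignments only, then MACS2 on each replicate. The lists they deposited hold positions only, with the threshold and control not given in the sources used here and depth unknown. For RNA-seq, the authors used HISAT2 and StringTie 1.3.3 with GENCODE 27 and deposited 3 values per transcript, coverage, FPKM and TPM, and coverage of each exon. The methods name hg19, but these coordinates are of GRCh38, so RNA was joined to peaks by Ensembl identifier and nothing was converted.

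FPKM was summed per gene. The log2 ratio used a pseudocount of 1. Peaks were set against GENCODE 44 on GRCh37, with promoters 1 kb on either side of any start, an overlap of 1 bp and a reach of 100 kb. Exon profiles follow, among transcripts with at least 10% of the gene in both libraries, the one with most exons, or else the leading one, a rule chosen after seeing the values. Python 3.11.15, samtools 1.23.1 and matplotlib 3.10.9 were used, and the code was tested on simulated data.

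The members and the lists (33 droplet genes and 35 cell type markers) were chosen with earlier results of these data known. Genes named are the members, genes overlapping or next to them or to their peaks, and these lists. Alternatives covered the minimum level, TPM, the largest transcript, the pseudocount, the share of bases, the window and the start sites of promoters, the reach of the motif and leaving out each replicate. Start sites of protein-coding transcripts only were added after seeing the data.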

Additional observations from a re-analysis of the deposited data

How the results depend on the processing

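The count of members at FPKM 1 or more, 8, ran from 6 to 9 over the other minimum levels, TPM and the largest transcript, and was 8 without either library. A TPM of 1 is a lower cutoff here than an FPKM of 1, since the FPKM of each library summed to less than its TPM. Promoter counts moved more. With only the start of the gene record, replicate 1 gave 1 member instead of 2, since the *PLIN2* peak lies at a downstream start, and replicate 2 gave 1. Replicate 2 also gave 1 with 0.5 kb and with starts of protein-coding transcripts only (added after seeing the data), both of which drop *PNPLA2*, and 4 with 10 kb. Both replicates together gave 2 instead of 1 with 3 kb and with 10 kb, where *PLIN2* joins *HILPDA*. *PLIN2* joins only through the replicate 2 peak in its last exon, 1957 bp from a start inside the gene at 19118444 on GRCh37. That peak does not overlap the replicate 1 peak at the *PLIN2* promoter. The count for both replicates was also 2 when either replicate was left out, since a single list is then required. Replicate 2 peaks at members with a match to ACGTG or GCGTG fell from 4 to 2 within 100 bp of the centre. Promoters with a match were 5 of 9 members by RefSeq window and 9 of 10 with 1 kb on either side of the gene start on GRCh37, an alternative that changes the window, the start site and the genes counted. Within a library TPM is FPKM times a constant. That all 10 gene levels stayed within 1 SD after scaling TPM to the FPKM total therefore followed from arithmetic and tested nothing. The largest transcript alone moved 7 gene levels. With the largest transcript, the mean of *PLIN3* (14.6) fell below that of *ABHD5* (15.9). The libraries of this pair then overlapped, with 17.7 and 11.4 for *PLIN3* and 15.6 and 16.1 for *ABHD5*. The pseudocount of 0.1 moved the log2 ratio of 1 member, *PLIN1*, and the share of bases moved 6 of 10 leading shares. No paired analysis was possible because there is only 1 treatment, and ChIP-seq and RNA-seq replicates are linked by nothing but a number. With 2 libraries, no scores per peak and no read counts, neither the counting error of a level nor the strength of a peak could be given.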
